A study of Homo sapiens with 2 samples.

Results

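HSPA5, HSP90B1, CANX and PDIA3, chaperones of the endoplasmic reticulum, were described in 95D cells, a human lung cancer line of wild-type genotype. The members were the transcript rows listed under these gene symbols with a number as value, which gave 33 of the 18663 rows with a value and 4 of 9253 names. There were 2 libraries, 1 from cells kept for 48 h in glutamine-free DMEM and 1 from cells kept for 48 h in glucose-free DMEM, both with dialyzed serum and both after seeding in complete medium. Neither group has a replicate or a library from complete medium, so each difference given here is one between these libraries, with no test and no p-value. The series' title and design text speak of an ALKBH5 immunoprecipitation set against input, while the sample labels give total RNA with ribosomal RNA depleted and do not say which library is a pull-down. The row heading names long non-coding RNAs, and no transcript identifier is given, so a value belongs to the rows listed under a symbol and cannot be equated with the level of that gene's messenger RNA.

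The endoplasmic reticulum is where secreted and membrane proteins fold, helped by its chaperones. HSPA5, also called BiP or GRP78, is the Hsp70 chaperone that binds unfolded chains and keeps the stress sensors of the compartment inactive. HSP90B1, or GRP94, is its Hsp90 chaperone and folds clients such as integrins and Toll-like receptors. CANX, or calnexin, is a membrane lectin that holds newly made glycoproteins, and PDIA3, or ERp57, is the disulfide isomerase that works on them together with calnexin. When unfolded protein builds up, the unfolded protein response switches on such genes through the transcription factors ATF6 and XBP1. The names GRP78 and GRP94 stand for glucose-regulated proteins, given because both proteins were found to be made in larger amounts by cultured cells short of glucose.

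In RefSeq on GRCh38.p14, HSPA5 lies on chromosome 9 from 125234853 to 125241343 on the minus strand and HSP90B1 on chromosome 12 from 103930410 to 103947926 on the plus strand. CANX spans 179678656 to 179731641 on the plus strand of chromosome 5, and PDIA3 spans 43746438 to 43773278 on chromosome 15. The deposited files hold no coordinates. The 250 bases before an annotated start are shown for HSPA5, HSP90B1 and CANX because all 3 hold the endoplasmic reticulum stress element, the sequence that ATF6 binds with NF-Y. It was searched on both strands as CCAAT, any 9 bases, then CCACG, and its fixed letters are in capitals below, also where they run on the other strand as CGTGG and ATTGG. No promoter window was available for PDIA3, so it was not searched for the element. The stretches are chr9:125241344-125241593 (minus strand), chr12:103930160-103930409 (plus strand) and chr5:179698679-179698928 (plus strand), written 5′ to 3′.
HSPA5: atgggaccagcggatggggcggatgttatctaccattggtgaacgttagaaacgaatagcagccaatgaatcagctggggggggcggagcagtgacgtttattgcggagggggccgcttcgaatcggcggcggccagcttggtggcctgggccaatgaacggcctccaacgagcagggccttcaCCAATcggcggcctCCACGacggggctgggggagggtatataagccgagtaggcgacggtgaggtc
HSP90B1: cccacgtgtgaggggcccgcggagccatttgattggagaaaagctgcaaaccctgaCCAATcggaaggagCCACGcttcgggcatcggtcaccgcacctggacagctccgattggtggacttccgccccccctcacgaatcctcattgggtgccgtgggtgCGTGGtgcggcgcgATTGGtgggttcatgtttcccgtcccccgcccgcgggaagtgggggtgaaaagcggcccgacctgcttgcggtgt
CANX: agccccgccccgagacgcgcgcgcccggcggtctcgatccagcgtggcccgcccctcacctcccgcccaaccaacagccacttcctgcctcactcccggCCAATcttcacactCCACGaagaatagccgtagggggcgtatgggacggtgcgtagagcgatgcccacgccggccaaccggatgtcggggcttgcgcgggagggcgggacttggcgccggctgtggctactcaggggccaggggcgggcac

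The element was centred 57 bases before the start in HSPA5 and 142 bases before it in CANX. HSP90B1 held 2, centred 185 and 80 bases before the start, the nearer one on the opposite strand. Of the 35116 windows of 300 bases around RefSeq starts, 27 held an exact element, or 0.0769%, and the HSP90B1 window was the 1 that held 2 of them. CCAAT by itself, on either strand, was in 34.6% of windows. For CANX, 3 of its 4 overlapping or neighbouring windows held the element, and the one listed first is shown. Of 91 names of the wider endoplasmic reticulum lists with a window, 8 held the element: CALR, CANX, CRELD2, ERO1B, HSP90B1, HSPA5, PDIA6 and XBP1. Among them 7 had a value. The 3 members of these 7 were chosen with their values known, and 0 of the other 4 were above 0 in the glucose-starved library, beside 5 of 54 measured list names whose window lacked the element. Over all names 4.25% were above 0 in that library, so the 0 of 4 is no result about the element. Of the 29 cytosolic and mitochondrial chaperone names with a window, 0 held it. A match is a stretch of letters and says nothing of binding in these cells.

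The values behaved as reads counted for a row and multiplied by 1 factor per library, not divided by transcript length, so levels of different genes are not compared. Whole reads could be recovered from the steps between values. The listed rows came to 1442570 reads in the glutamine-starved and 42827 reads in the glucose-starved library, a 33.7-fold difference, while the factors differed only 1.6-fold. A number above 0 was found in 18564 rows of the glutamine-starved and in 474 rows of the glucose-starved library. At the level of names, 393 of 9253 were above 0 in the glucose-starved library, or 4.25%, and the reference genes ACTB and GAPDH were listed at 0 there. All 4 chaperone names were above 0 in both libraries. They had been chosen with this known, so that count is no result about them. In bulk RNA of a culture, fewer cells holding a transcript and less of it per cell cannot be told apart.

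Which transcript rows carried the value differed between the libraries for 3 of the 4 names. The members had 45 rows, of which 12 held no value in either library. Of the 33 with a value, 31 were above 0 in the glutamine-starved library and 7 in the glucose-starved library, and 5 rows were above 0 in both. Of the 7, 5 were thus also above 0 in the glutamine-starved library, beside 79.1% of all 474 rows above 0 in the glucose-starved library. The row with the highest value was a different one in each library for HSPA5, HSP90B1 and CANX, and the same one for PDIA3. Among all 276 names above 0 in both libraries with at least 2 rows, the highest row differed in 169, or 61.2%. The members' 3 of 4 is near that share.

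HSPA5 had 12 rows, all with a value, although RefSeq lists 1 transcript for the gene. In the glutamine-starved library all 12 rows were above 0. Row 1, counted in file order, stood at 2675, row 9 at 523, row 4 at 441, row 5 at 269.7 and row 12 at 134, and the other 7 lay between 4.73 and 58.5. In the glucose-starved library row 7 stood at 349 and row 11 at 7.61, and the other 10 rows were listed at 0. The row that carried the name in one library was thus almost empty in the other. Row 1 held 3382 of 5299 HSPA5 reads in the glutamine-starved library, or 63.8% (95% Wilson interval 62.5 to 65.1%), and 0 of 282 reads in the glucose-starved library. Row 7 held 6 reads in the glutamine-starved library, or 0.113% (0.0519 to 0.247%), and 276 reads in the glucose-starved library, or 97.9% (95.4 to 99.0%).

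HSP90B1 had 17 rows, 10 of them with a value, against 1 RefSeq transcript. In the glutamine-starved library 8 rows were above 0, led by row 16 at 555, with row 13 at 63.3, row 2 at 49.8 and row 15 at 49.0, and the remaining 4 between 15.0 and 26.9. In the glucose-starved library the value came from row 1 at 166 and row 5 at 106. No row was above 0 in both libraries, so the sets of rows did not overlap at all. Of the 276 names above 0 in both libraries with at least 2 rows, 38 had no row in common, or 13.8%. Row 16 held 68.9% (66.0 to 71.7%) of the 1019 HSP90B1 reads in the glutamine-starved library. Row 1 held 60.9% (54.3 to 67.2%) and row 5 held 39.1% (32.8 to 45.7%) of the 215 reads in the glucose-starved library.

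CANX had 5 rows, 4 with a value, and RefSeq lists 16 transcripts for it, predicted ones included. In the glutamine-starved library row 1 stood at 78.3, row 3 at 66.4, row 5 at 3.15 and row 2 at 0.772, the last being a single read. In the glucose-starved library row 3 stood at 119 and row 2 at 56.9, with rows 1 and 5 listed at 0. Row 3 was the one member row with a sizeable value in both libraries, with 84 reads in the glutamine-starved and 94 reads in the glucose-starved library. It held 44.7% (37.8 to 51.8%) of CANX reads in the glutamine-starved library and 67.6% (59.5 to 74.8%) in the glucose-starved library. Row 2 held 0.532% (0.0940 to 2.95%) in the glutamine-starved library and 32.4% (25.2 to 40.5%) in the glucose-starved library.

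PDIA3 had 11 rows, 7 with a value, against 1 RefSeq transcript. In the glutamine-starved library row 3 stood at 59.3, row 4 at 33.2 and row 5 at 24.5, and the other 4 lay between 1.56 and 3.94. In the glucose-starved library row 3 alone was above 0, at 10.1. Row 3 therefore led in both libraries, with 75 of 163 reads in the glutamine-starved library, or 46.0% (38.5 to 53.7%), and all 8 reads in the glucose-starved library. With 8 reads, the glucose-starved value of PDIA3 has the widest counting error of the 4 names.

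**Figure D1:**
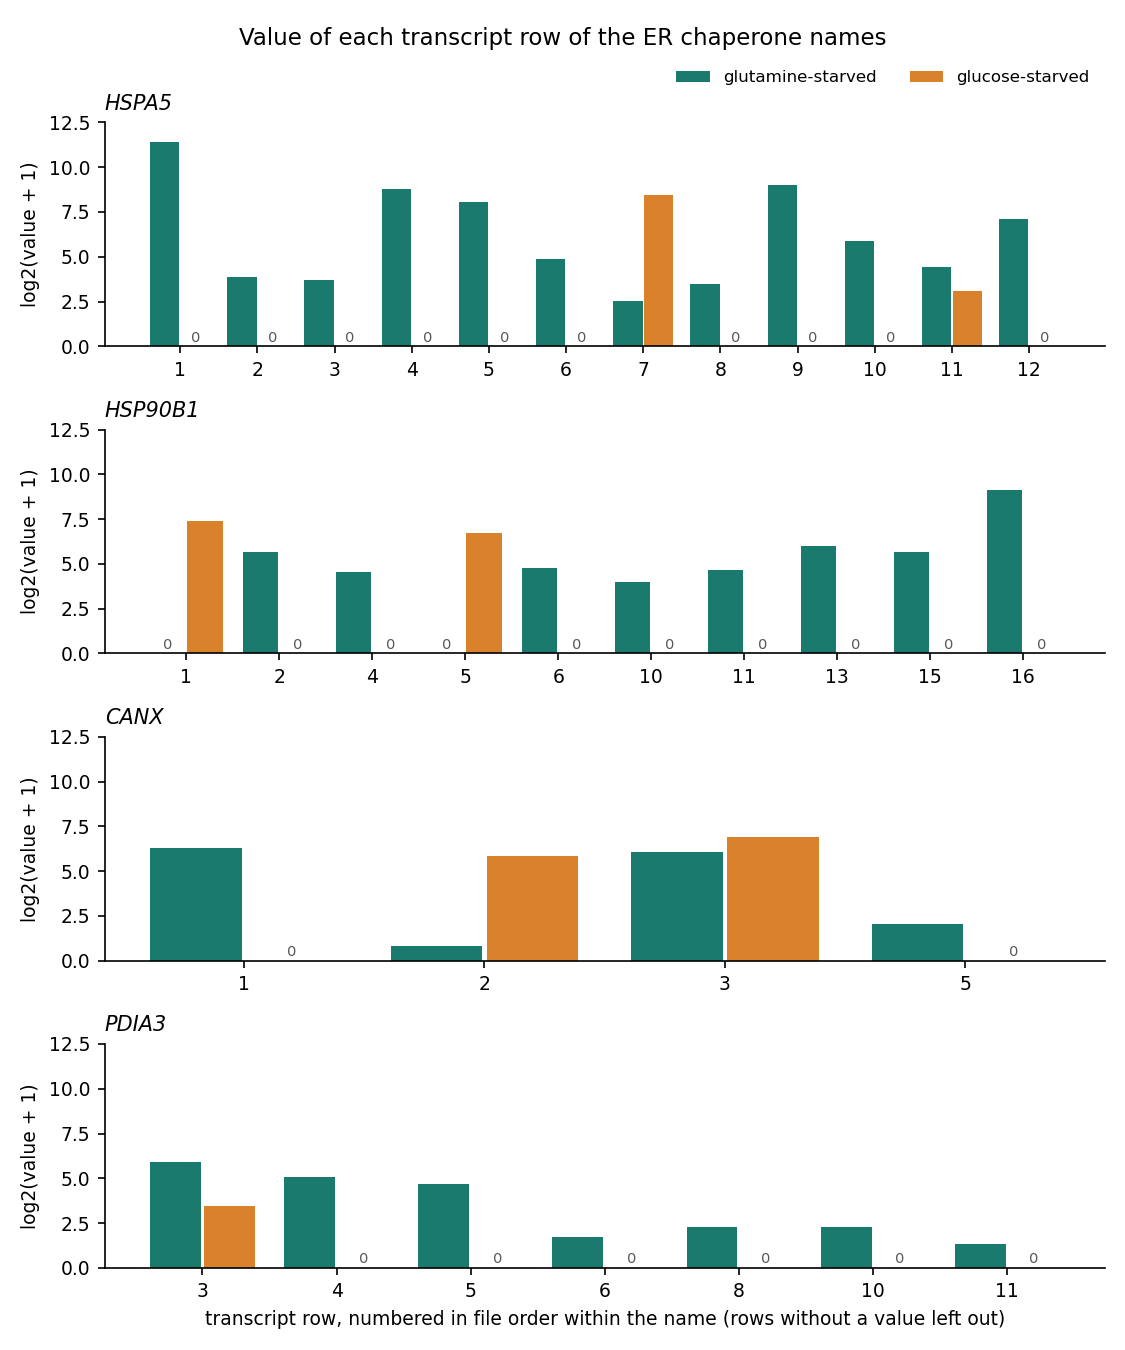
Value of each transcript row of HSPA5, HSP90B1, CANX and PDIA3 on a log2(value + 1) scale, by row number in file order; green bars are the glutamine-starved and orange bars the glucose-starved library (1 library each), and a 0 marks a row listed at 0. Green bars stand over 31 rows and orange bars over 7, and for HSP90B1 no row has both.

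Of the 5 member rows above 0 in both libraries, 2 stood at least 2-fold higher in the glutamine-starved library, HSPA5 row 11 and PDIA3 row 3, on the log2(value + 1) scale. Another 2, HSPA5 row 7 and CANX row 2, stood at least 2-fold higher in the glucose-starved library. CANX row 3 lay between, with a log2 ratio of the glutamine-starved over the glucose-starved library of -0.83. Over all 375 rows above 0 in both, 30.1% stood at least 2-fold higher in the glutamine-starved and 40.0% in the glucose-starved library. The 2 of 5 member rows in each direction lie near these shares.

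Summed over its rows, HSPA5 stood at 4192 in the glutamine-starved and 357 in the glucose-starved library, a log2 ratio of 3.55, and an 11.8-fold ratio of values (95% counting interval 10.4 to 13.3). PDIA3 stood at 129 in the glutamine-starved and 10.1 in the glucose-starved library, 12.7-fold (6.32 to 30.0). HSP90B1 stood at 806 in the glutamine-starved and 272 in the glucose-starved library, 2.96-fold (2.56 to 3.45). CANX stood at 149 in the glutamine-starved and 176 in the glucose-starved library, a ratio of 0.846 (0.676 to 1.06) whose interval holds 1. On the deposited scale 3 of the 4 were thus at least 2-fold higher in the glutamine-starved library, where 97.4% of all 9253 names and 42.2% of the 351 names above 0 in both were. None of the 4 stood at least 2-fold higher in the glucose-starved library, beside 1.42% of all names and 25.4% of those above 0 in both. Such intervals hold counting error alone, because reads were not tagged by molecule and may be copies of one another.

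The direction depended on the scale for HSPA5 and HSP90B1. As a share of all listed reads, HSPA5 held 0.367% (0.358 to 0.377%) in the glutamine-starved and 0.658% (0.586 to 0.740%) in the glucose-starved library. HSP90B1 held 0.0706% (0.0664 to 0.0751%) in the glutamine-starved and 0.502% (0.439 to 0.574%) in the glucose-starved library. CANX held 0.0130% (0.0113 to 0.0150%) in the glutamine-starved and 0.325% (0.275 to 0.383%) in the glucose-starved library. For these 3 names the share was larger in the glucose-starved library by more than counting error. Most names above 0 in both libraries also had a larger share there. For PDIA3 the shares were 0.0113% (0.00969 to 0.0132%) in the glutamine-starved and 0.0187% (0.00947 to 0.0369%) in the glucose-starved library, intervals that overlap. XLOC_220679, an unnamed locus, took 38.8% (38.7 to 38.9%) of the listed reads in the glutamine-starved and 13.0% (12.7 to 13.3%) in the glucose-starved library. Without it HSPA5 held 0.600% (0.584 to 0.616%) in the glutamine-starved and 0.757% (0.674 to 0.850%) in the glucose-starved library, and HSP90B1 held 0.115% (0.109 to 0.123%) in the glutamine-starved and 0.577% (0.505 to 0.659%) in the glucose-starved one. CANX then held 0.0213% (0.0185 to 0.0246%) in the glutamine-starved and 0.373% (0.316 to 0.440%) in the glucose-starved library, and PDIA3 held 0.0185% (0.0158 to 0.0215%) in the glutamine-starved and 0.0215% (0.0109 to 0.0424%) in the glucose-starved one. Each glutamine-starved share thus grew by more than 1.5 times without that locus, and the 3 names kept a larger share in the glucose-starved library. With each library rescaled to the same total, the log2 ratios were -0.84 for HSPA5, -2.83 for HSP90B1, -4.63 for CANX and -0.72 for PDIA3. Over the 351 names above 0 in both the rescaled median was -3.77, and of the 4 only CANX lay below it. On that scale HSP90B1 and CANX stood at least 2-fold higher in the glucose-starved library, as were 86.9% of the 351 names above 0 in both, and 0 of the 4 were so in the glutamine-starved library, against 5.98%.

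**Figure D2:**
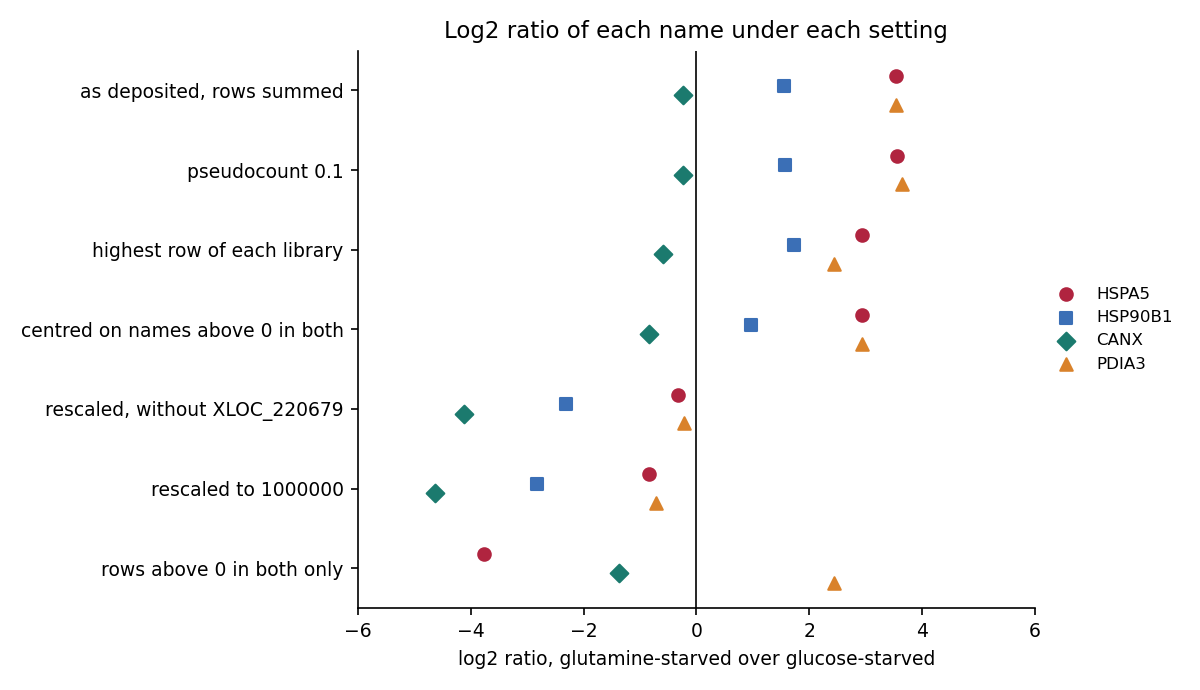
Log2 ratio of the glutamine-starved over the glucose-starved library for each of the 4 names under 7 settings, with a line at 0. HSPA5 lies at 3.55 as deposited, at -0.84 after rescaling and at -3.77 over rows above 0 in both. Those rows hold 0.604% of HSPA5 reads in the glutamine-starved library. HSP90B1 has no row above 0 in both and no point there.

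Ratios between the names within a library do not depend on any scaling, though they do depend on which rows were counted. HSPA5 had 5.20 times the reads of HSP90B1 (95% counting interval 4.86 to 5.57) in the glutamine-starved library and 1.31 times (1.09 to 1.57) in the glucose-starved library. HSPA5 to CANX was 28.2 (24.4 to 32.8) in the glutamine-starved and 2.03 (1.65 to 2.50) in the glucose-starved library. HSP90B1 to CANX was 5.42 (4.63 to 6.37) in the glutamine-starved and 1.55 (1.24 to 1.93) in the glucose-starved library. In each of these 3 pairs the chaperone named first had the larger ratio in the glutamine-starved library, by more than counting error. Values of the 351 names above 0 in both were less spread in the glucose-starved library. The lower and upper quartiles were 56.9 and 147 there, and 39.9 and 347 in the glutamine-starved library. Whether the 3 pairs differ from pairs of other names was not tested. Over the rows above 0 in both libraries alone, HSPA5 to CANX was 0.376 in the glutamine-starved and 2.03 in the glucose-starved library, which turns the order for that pair. In the glutamine-starved library these rows held 32 of 5299 HSPA5 reads, or 0.604%, and 45.2% of CANX reads. In the glucose-starved library they held all reads of both names. HSPA5 to PDIA3 was 32.5 (27.8 to 38.2) in the glutamine-starved and 35.2 (17.6 to 82.4) in the glucose-starved library, with intervals that overlap. CANX to PDIA3, the lectin and its partner, was 1.15 (0.930 to 1.43) in the glutamine-starved and 17.4 (8.58 to 41.0) in the glucose-starved library. HSP90B1 to PDIA3 was 6.25 (5.29 to 7.42) in the glutamine-starved and 26.9 (13.4 to 63.0) in the glucose-starved library. The last 2 pairs thus differed the other way, with fewer PDIA3 reads relative to CANX and HSP90B1 in the glucose-starved library. Pairs with PDIA3 were added after the data were seen and rest on its 8 reads there.

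Against MALAT1, a nuclear long non-coding RNA abundant in both libraries, HSPA5 had 0.0611 reads per MALAT1 read (0.0594 to 0.0628) in the glutamine-starved and 0.272 (0.238 to 0.311) in the glucose-starved library. CANX had 0.00217 (0.00187 to 0.00250) in the glutamine-starved and 0.134 (0.112 to 0.160) in the glucose-starved library. All 4 names had fewer reads per MALAT1 read in the glutamine-starved library. As deposited, MALAT1 had a log2 ratio of 5.71, beside a median of 0.61 over the 351 names above 0 in both. Names with a ratio well below that of MALAT1 give the same order, so the count is no result about the chaperones. MALAT1 itself held a larger share of the listed reads in that library.

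The names most alike to each member, by distance over log2(value + 1) in the 2 libraries among 312 other symbols above 0 in both, were found for each in turn. For HSP90B1 these were SNHG16, a long non-coding RNA, at 864 in the glutamine-starved and 240.2 in the glucose-starved library, and MATR3, a nuclear matrix protein, at 715 in the glutamine-starved and 219 in the glucose-starved library. For CANX they were ZNF195, a zinc finger gene, at 156 in the glutamine-starved and 179.5 in the glucose-starved library, and KRT8, an epithelial keratin. For PDIA3 they were EBLN3P, a transcribed pseudogene, at 126 in the glutamine-starved and 10.2 in the glucose-starved library, and ATP11A, a lipid flippase. HSPA5 had no close neighbour, the nearest being PDE10A, a phosphodiesterase, at a distance of 1.23, and RPLP0, a ribosomal protein, at 1.38. The nearest to the other 3 lay at 0.20, 0.07 and 0.03. Such values are not per length, and 2 libraries cannot show that genes vary together.

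**Figure D3:**
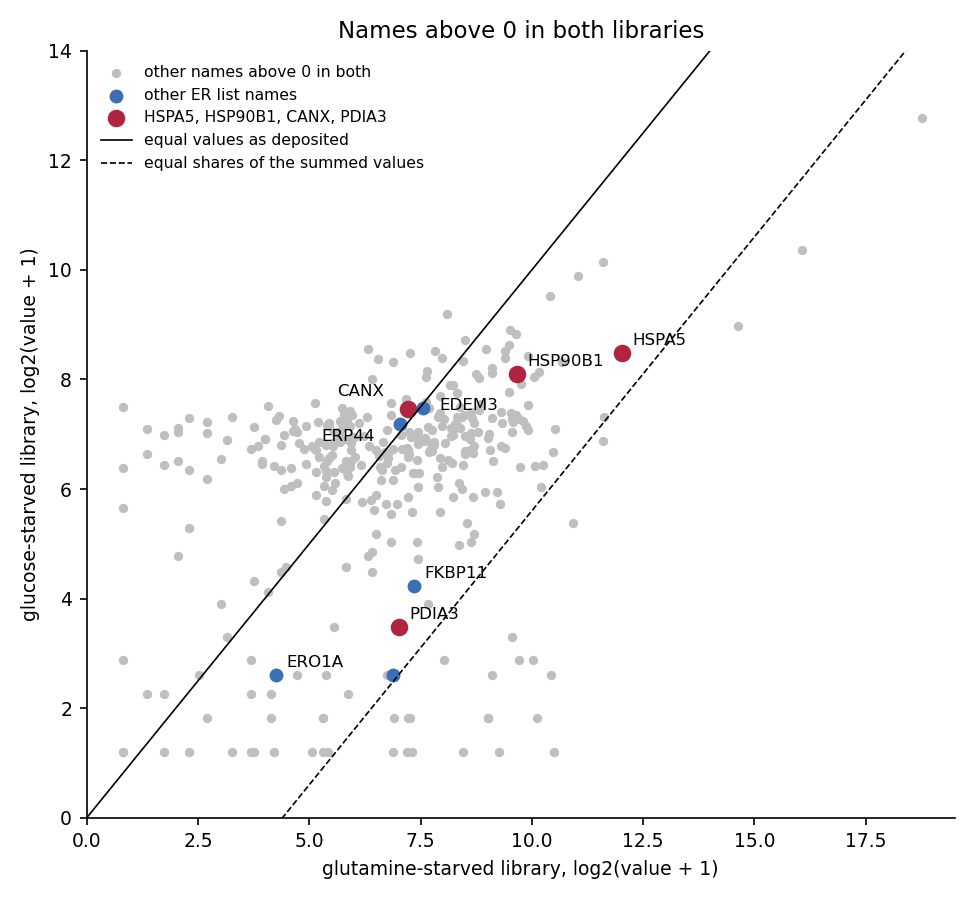
Each point is 1 of the 351 names above 0 in both libraries, with the glutamine-starved value across and the glucose-starved value upward, both as log2(value + 1). The solid line marks equal deposited values and the dashed line equal shares of the summed values; HSPA5, HSP90B1 and PDIA3 lie between the lines and CANX lies just above the solid one.

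The wider machinery of the endoplasmic reticulum was read from 8 lists with 103 entries, of which 70 had a value, 11 were listed without one and 22 are not analysed here. In the glucose-starved library 10 of the 70 were above 0. Besides the 4 members this leaves 6 of 66 names, or 9.09%, beside 2 of 21 cytosolic and mitochondrial chaperones, or 9.52%, and 4.25% of all names. Among names at 100 or more in the glutamine-starved library, 4 of 23 list names other than the members were above 0 in the glucose-starved library, or 17.4%, and 195 of all 1465 such names, or 13.3%. On the deposited scale 66 of the 70 stood at least 2-fold higher in the glutamine-starved library and 1 in the glucose-starved library. Over all 9253 names these shares were 97.4% and 1.42%. The median log2 ratio was 5.44 for the 70 and 4.32 over all names. In the glucose-starved library 60 of the 70 were listed at 0, so these figures mainly carry the glutamine-starved level and the added 1. For the 9 list names above 0 in both the median log2 ratio was 1.65 on the deposited and -2.49 on the rescaled values. The medians for all 351 names were 0.61 and -3.77 on these scales. These 9 include the 4 members, which were chosen with their values known, so the difference is no result about the lists.

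Each single list is short, and 4.25% of all names were above 0 in the glucose-starved library, so counts per list are description only. Of the Hsp70 system, 7 of 12 entries had a value and HSPA5 was the 1 above 0 in the glucose-starved library. DNAJC10, a disulfide reductase that works with HSPA5, stood at 221 and HYOU1, a nucleotide exchange factor for it, at 84.5 in the glutamine-starved library, each listed at 0 in the glucose-starved library. CNPY2, of the Hsp90 list, stood at 69.5 in the glutamine-starved library and was listed at 0 in the glucose-starved one. In the calnexin cycle, 2 of 10 measured names were above 0 in the glucose-starved library, CANX and EDEM3, a mannosidase of glycoprotein disposal. EDEM3 stood at 187 in the glutamine-starved and 178 in the glucose-starved library, close to even like CANX. MAN1B1, another mannosidase of that route, stood at 305 in the glutamine-starved library, and CALR, the soluble relative of calnexin, at 96.5. Both were listed at 0 in the glucose-starved library, and CALR is named here after its values were seen.

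Among disulfide isomerases and oxidases, 3 of 12 measured names were above 0 in the glucose-starved library. ERP44, which retains client proteins through mixed disulfides, stood at 131 in the glutamine-starved and 144 in the glucose-starved library. ERO1A, the oxidase that recharges the isomerases, stood at 18.2 in the glutamine-starved and 5.10 in the glucose-starved library, which is 4 reads. P4HB, the main protein disulfide isomerase, stood at 520.2 in the glutamine-starved library over 18 rows and was listed at 0 in the glucose-starved library in all of them. Of the stress sensors and transcription factors 3 of 13 entries had a value, and 0 of the 3 were above 0 in the glucose-starved library. With 4.25% of all names above 0 there, that 0 is no result about them. The 3 were XBP1, a transcription factor of the response, at 283, MBTPS1, a protease that cuts ATF6, at 76.7 and EIF2AK3, the sensor PERK, at 6.31 in the glutamine-starved library.

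In degradation and export, 11 of 13 entries had a value. NPLOC4, a cofactor in pulling proteins from the membrane, stood at 1104 and HERPUD1, a stress-induced membrane protein, at 279.9 in the glutamine-starved library, with a listed 0 for both in the glucose-starved library. None of the 14 measured translocon names was above 0 in the glucose-starved library. As 4.25% of all names were above 0 there, this count is no result about the translocon. SEC61A1, the channel's main subunit, stood at 281, SPCS3, of the signal peptidase, at 182 and SSR2 at 160.5 in the glutamine-starved library. In the list of prolyl isomerases, retrieval receptors and calcium handlers, 2 of 11 were above 0 in the glucose-starved library. FKBP11, a prolyl isomerase, stood at 163 in the glutamine-starved and 17.7 in the glucose-starved library, while RCN1, a calcium-binding protein, was listed at 0 in the glutamine-starved library and stood at 101 in the glucose-starved library. The prolyl isomerases FKBP10 at 278 and PPIB at 275, and SDF4, a calcium-binding protein, at 238 in the glutamine-starved library were listed at 0 in the glucose-starved one.

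Outside the compartment, 2 of 21 measured chaperones were above 0 in the glucose-starved library, HSPD1 and TCP1. HSPA9, the mitochondrial Hsp70, stood at 976 and DNAJC7, a co-chaperone of Hsp70 and Hsp90, at 299.8 in the glutamine-starved library, each listed at 0 in the glucose-starved library. HSPD1, the mitochondrial chaperonin, stood at 673 in the glutamine-starved and 335 in the glucose-starved library. TCP1, a subunit of the cytosolic chaperonin, stood at 34.7 in the glutamine-starved and 58.2 in the glucose-starved library. Of the 8 lists together, the 4 members held 42.6% of reads in the glutamine-starved and 64.3% in the glucose-starved library. The members had been picked with their values known, so these shares are no result about them.

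**Figure D4:**
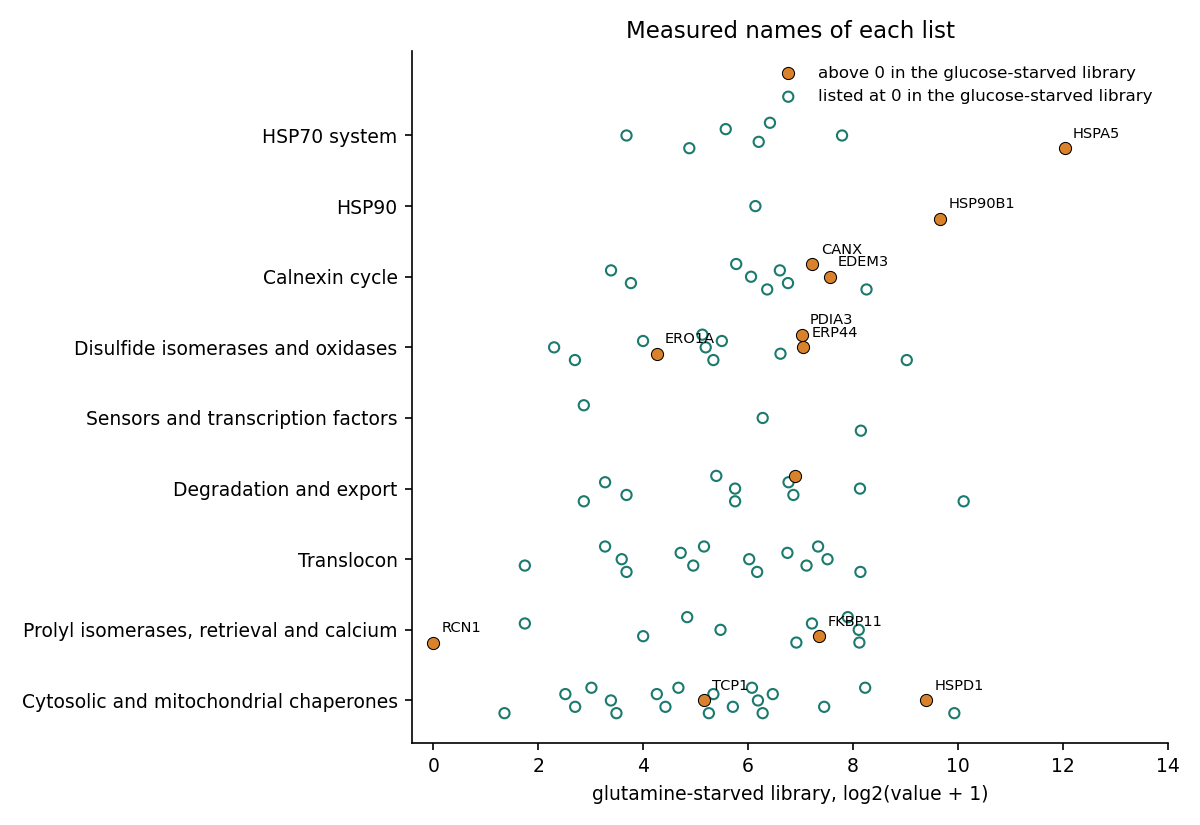
Each point is 1 measured name of a list, placed by its value in the glutamine-starved library as log2(value + 1); filled orange points are names above 0 in the glucose-starved library and open green points names listed at 0 there. Filled points are 10 of 70 in the endoplasmic reticulum lists and 2 of 21 in the cytosolic and mitochondrial list.

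Markers of the labelled cell type were partly present. Of 6 epithelial markers 4 had a value, and KRT8 was above 0 in both libraries, at 143 in the glutamine-starved and 199.8 in the glucose-starved library. KRT18 at 75.1, KRT19 at 42.6 and KRT7 at 9.47 in the glutamine-starved library were listed at 0 in the glucose-starved library, while EPCAM and CDH1 held no value. Of 5 lung markers NAPSA had a value, at 18.9 in the glutamine-starved and 161 in the glucose-starved library. Of the mesenchymal markers FN1 stood at 963 in the glutamine-starved and 344 in the glucose-starved library, and VIM at 75.9 in the glutamine-starved library with a listed 0 in the glucose-starved one. Of 3 fibroblast markers COL3A1 had a value, at 2.35 in the glutamine-starved library and a listed 0 in the glucose-starved one. None of the 4 leukocyte and 2 endothelial markers had a value.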

How the data were processed

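RNA of 2 libraries of 95D cells was sequenced paired-end after depletion of ribosomal RNA, per the labels' protocols. HISAT2 2.0.5, StringTie and the build hg38 are named in the submitters' processing notes, without roles. Which counter, gene annotation, filter or normalization was used is not given in the sources used here. The deposited values have no stated unit. Values under 1e-09 were set to 0, and rows with a mark in place of a number were left out. The values rose in steps of 0.791 in the glutamine-starved and 1.264 in the glucose-starved library. After offsets of -0.018 and 0.022 were taken off, division by the step came within 0.1 of a whole read for 100% of values of up to 1000 reads (18536 and 472 values). The basis of the factors is not known. The table of the whole series repeats these values.

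Rows sharing a name were summed. The log2 ratio is the difference of log2(value + 1), glutamine-starved minus glucose-starved. No test was possible with 1 library per condition. Shares have 95% Wilson intervals and ratios of reads exact binomial intervals, for counting error only. A name at 0 was given no upper limit, since genes used by every cell were also listed at 0. Depth is known for the listed rows only. The members and gene lists were chosen with earlier results of these data known. Named genes were the members; in each list, every name above 0 in the glucose-starved library and the 3 highest in the glutamine-starved library; and the 2 names closest to each member. A name within this rule is not reported here. Promoter windows are from RefSeq on GRCh38.p14 and were available for 3 of the 4 members, all but PDIA3. They run from 250 bases before to 50 after each start. Alternatives were rescaling, centring, a pseudocount of 0.1, the highest row, other minimums and other fold thresholds. The recovery of reads and the fold calls were tested on data simulated at the depth of the glutamine-starved library. The far lower depth of the glucose-starved library was not simulated, and the intervals were not part of that test. Python 3.11.15, pandas 2.3.3 and scipy 1.17.1 were used.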

Additional observations from a re-analysis of the deposited data

How the results depend on the processing

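For HSPA5 and HSP90B1 the direction depended on the scale. PDIA3 had no direction beyond counting error after rescaling, and CANX had none as deposited. As deposited the log2 ratios of the glutamine-starved over the glucose-starved library were 3.55 for HSPA5, 1.56 for HSP90B1, -0.24 for CANX and 3.54 for PDIA3. Rescaled to 1000000 they were -0.84, -2.83, -4.63 and -0.72 in that order, and without XLOC_220679, the most abundant name, -0.33, -2.32, -4.12 and -0.22. The median over the 351 names above 0 in both was -3.77 when rescaled to 1000000. Centring on the median of names above 0 in both gave 2.94, 0.96, -0.85 and 2.94. Taking the highest row of each library gave 2.94 for HSPA5, 1.74 for HSP90B1, -0.60 for CANX and 2.44 for PDIA3. Over the rows above 0 in both libraries, a setting added after the data were seen, HSPA5 was at -3.77, CANX at -1.37 and PDIA3 at 2.44, and HSP90B1 could give no value. Those rows held 0.604% of HSPA5 reads in the glutamine-starved library. The pseudocount of 0.1 moved none of the 4 beyond its counting interval.

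The endoplasmic reticulum lists had 66 of 70 names at least 2-fold higher in the glutamine-starved and 1 in the glucose-starved library, beside 97.4% and 1.42% of all names. After rescaling the list counts were 60 and 7, and without XLOC_220679 60 and 6. The 60 after rescaling were the names listed at 0 in the glucose-starved library, and the share over all names was not computed on that scale. With a minimum of 1 in both libraries the deposited counts were 6 and 0 of 9 names, because names listed at 0 drop out. Among all 351 names above 0 in both the shares were 42.2% and 25.4%. For the same 9 names the rescaled counts were 0 and 6, beside 5.98% and 86.9% of the 351. The direction of the list names above 0 in both thus depended on the scale. Over rows above 0 in both, summed per name, the list counts were 4 and 2 of 8 names. Of all 375 such rows taken singly, 30.1% and 40.0% were past 2-fold. These are shares of rows and not of names, and the share over names summed in this way was not computed. A minimum of 5, a pseudocount of 0.1, centring, the highest row, and thresholds of 1.5-fold and 4-fold kept the first count between 62 and 66 and the second at 1. Over rows above 0 in both, HSPA5 to CANX reads were 0.376 in the glutamine-starved and 2.03 in the glucose-starved library, which turns the order of the libraries for that pair. With the highest row of each library, HSPA5 to HSP90B1 was 4.82 and 2.11 in the same order, HSPA5 to CANX 34.2 and 2.94, and HSP90B1 to CANX 7.09 and 1.39. No paired analysis was possible because each condition has 1 library and no test was run. The 8 reads of PDIA3 in the glucose-starved library limit every value that rests on them.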
